A study of Mus musculus with 9 samples.

Results

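The comparison described here sets the cerebral cortex of *Celsr3* mutant mouse embryos against that of control embryos at embryonic day 16.5 (E16.5). Its members were chosen by genotype label: *Celsr3* mutant libraries 1, 2 and 4 and control libraries 1, 2 and 3, which are 6 of the 9 libraries of the series, with all 14670 listed genes. The mutants carry the label Celsr3 -/- and the controls the label +/+, whereas the methods give controls as heterozygous or wild-type littermates, so a control may carry 1 mutant allele. All animals had a mixed C57Bl/6 and CD1 background, and the labels name no Cre or transgene. Cortex was microdissected, total RNA was taken with Trizol according to the labels or with an RNeasy kit according to the methods, and a company sequenced it. The other 3 libraries of the series come from *Fzd3* mutants, a second genotype that shares these controls.

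*Celsr3* encodes an atypical cadherin that crosses the membrane repeatedly and belongs to the core planar cell polarity proteins, which orient cells and their processes within a tissue. In the brain it works with the receptor Fzd3 in axon guidance and in the building of the main forebrain tracts. At E16.5 the cortex holds radial glia, intermediate progenitors, newly made layer neurons, arriving interneurons, vessels and their covering membranes, and the lists of genes below follow these cells.

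The 2 genotypes differed in few genes. Of 14670 genes, 45 passed an adjusted P of 0.05 in limma (0.307%), 19 of them higher in the mutants (0.13%) and 26 lower (0.177%). *Celsr3* fell to 58.2% of its control mean. Apart from 7 near-identical entries of the *Gm1369x* family and 7 entries of the *Rpsa* and *Rpl14* families, 31 genes changed: 10 in 1 segment of chromosome 17, 6 on chromosome 9, 9 RNAs that stood at under 50% of every control, and 6 others. For 12449 genes (84.9%), some of the changed genes among them, the 95% interval of the difference lay within 0.5 log2 units of 0. Differences are *Celsr3* mutant minus control on the scale log2(CPM + 0.5), where CPM are counts scaled to library size, and the added 0.5 understates changes of genes with low values.

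Reads on the listed genes, taken from the smallest step of each column, came to 52266343, 61637620 and 39857305 in the controls and to 60333846, 54974978 and 69600591 in the *Celsr3* mutants. A level of 3 reads lay between 0.0427 and 0.0752 CPM over these 6 libraries. Such levels cover counting error only.

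The dissected tissue carried the markers of dorsal telencephalon. All 9 of those markers were listed, and their sum was 2730, 2880 and 2570 CPM in control libraries and 2810, 2910 and 2850 CPM in mutant ones, with *Neurod6* the most abundant. The choroid plexus markers *Ttr*, *Kcnj13* and *Folr1*, and *Gsx2*, *Nkx2-1*, *Gbx2* and *Lum*, were not analysed here. Of the ganglionic eminence markers 3 of 5 were listed, with sums of 155, 159 and 169 CPM across the controls, with 158, 137 and 126 CPM across the mutants, and *Dlx1* the most abundant. For thalamus 2 of 3 were listed, and the sums of 6.88, 6.98 and 6.67 CPM in the controls stood beside 4.71, 5.73 and 6.71 CPM in the mutants, mostly *Tcf7l2*. *Xist*, the RNA of the inactive X chromosome, was at 812, 850 and 0.803 CPM in control cortex, against 806, 0.744 and 806 CPM in mutant cortex, so each genotype had 2 libraries with *Xist* and 1 nearly without.

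One library stood apart from the rest. *Celsr3* mutant library 4 had 29 genes that were more than 1 log2 unit above all 5 other libraries, against 0 to 9 such genes in the others. The largest gaps were in *Col3a1*, *Col1a2*, *Colec12*, *Dcn* and *Mrc1*, genes of fibroblast matrix and of macrophages. *Col3a1*, a fibrillar collagen, was at 5.74, 4.63 and 3.56 CPM in control libraries and 6.86, 4.95 and 87.6 CPM in mutant ones. Of the 12 genes of the meninges and fibroblast list 8 were listed, and they summed to 59.3, 64.2 and 60 CPM across the controls, with 66.6, 60.5 and 289 CPM across the mutants, with *Igf2* the most abundant. The sum was highest in library 4. *Dcn*, at 1.72 and 2.07 CPM against 0.854 to 1.35 CPM in control cortex, and *Ogn*, at 1.29 and 1.11 CPM against 0.378 to 0.636 CPM, were also above every control in *Celsr3* mutant libraries 1 and 2, both chosen after their values were seen. Neither passed in limma, and without library 4 they differed by 0.59 and 0.75. Endothelial genes summed to 338 CPM in library 4 against 256 to 280 CPM in the others, and microglia and macrophage genes to 78.3 CPM against 48.9 to 60.1 CPM. Without library 4, 39 genes passed, 33 of them among the 45, and 11895 intervals lay within 0.5. The part of this library's fibroblast genes in the other results was not tested beyond these values and a covariate given with the processing.

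**Figure D1:**
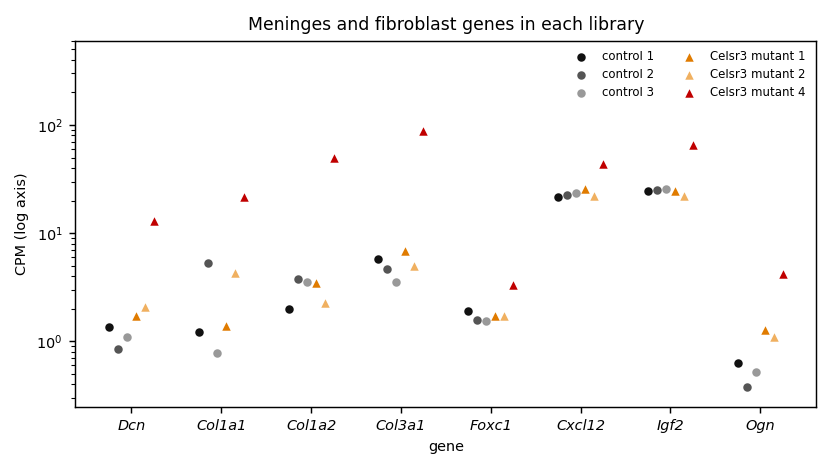
CPM (log axis) of the 8 listed meninges and fibroblast genes in the 3 control libraries (circles) and the 3 Celsr3 mutant libraries (triangles). Celsr3 mutant library 4 is the highest of the 6 for every gene shown, with Col3a1 at 87.6 CPM against 3.56 to 6.86 CPM in the others.

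The mutated gene itself comes first. *Celsr3* (XLOC_033590, chr9:108826320-108852969 of GRCm38, plus strand) measured 196, 243 and 214 CPM in control libraries 1 to 3. Mutant libraries 1, 2 and 4 held 122, 139 and 118 CPM. The highest mutant library was below the lowest control, so the groups did not overlap, but RNA of the gene remained at more than 50% of the control level. The means were 218 ± 23.9 and 127 ± 10.9 CPM (s.d., n = 3 libraries each), and the log2 difference was -0.78, with a 95% interval from -0.98 to -0.58 and a limma adjusted P of 0.0018. A two-sided exact permutation test over the 6 libraries gave P = 0.1, the smallest that 20 regroupings allow. Which exons the remaining reads cover was not analysed here. With the replicate number as a block the difference was -0.71 and the limma adjusted P 0.0699. In *Fzd3* mutants the gene was at 240 CPM on average, and the direct contrast between the mutants was -0.92 (limma adjusted P = 7.29e-05).

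**Figure D2:**
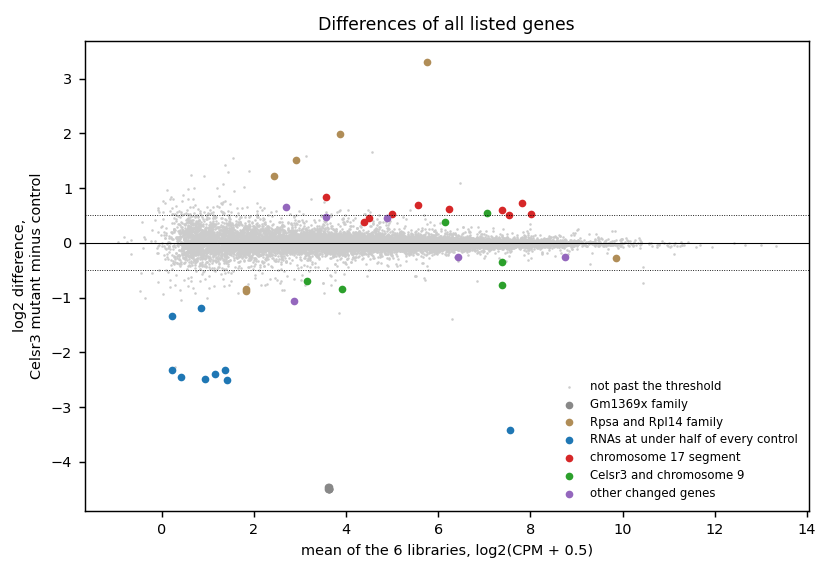
Log2 difference, Celsr3 mutant minus control, of all 14670 genes against their mean log2(CPM + 0.5) over the 6 libraries, with dotted lines at 0.5 and -0.5. The 45 changed genes are coloured by group, and the Gm1369x family lies lowest, at -4.50 to -4.46.

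The plot of all genes against abundance shows a narrow cloud around 0 with few genes apart from it. Of the 31 genes outside both families, 15 were higher and 16 lower in the mutants, and 20 are protein coding. The absolute difference was under 0.5 for 8 of them, from 0.5 to 1 for 13, and at least 1 for 10. All 45 changed genes had 6 libraries without overlap between genotypes, as did 1527 of 14670 genes (10.4%). The most abundant changed genes by control mean were *Rpsa* at 1015 CPM, *Gm13727* at 615, *Nckap1* at 473, *Celsr3* at 218, *Dynlt1c* at 215 and *Epm2aip1* at 186 CPM. Together the changed genes held 0.416, 0.399 and 0.429% of the CPM in the controls and 0.353, 0.344 and 0.348% in the mutants.

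**Figure D3:**
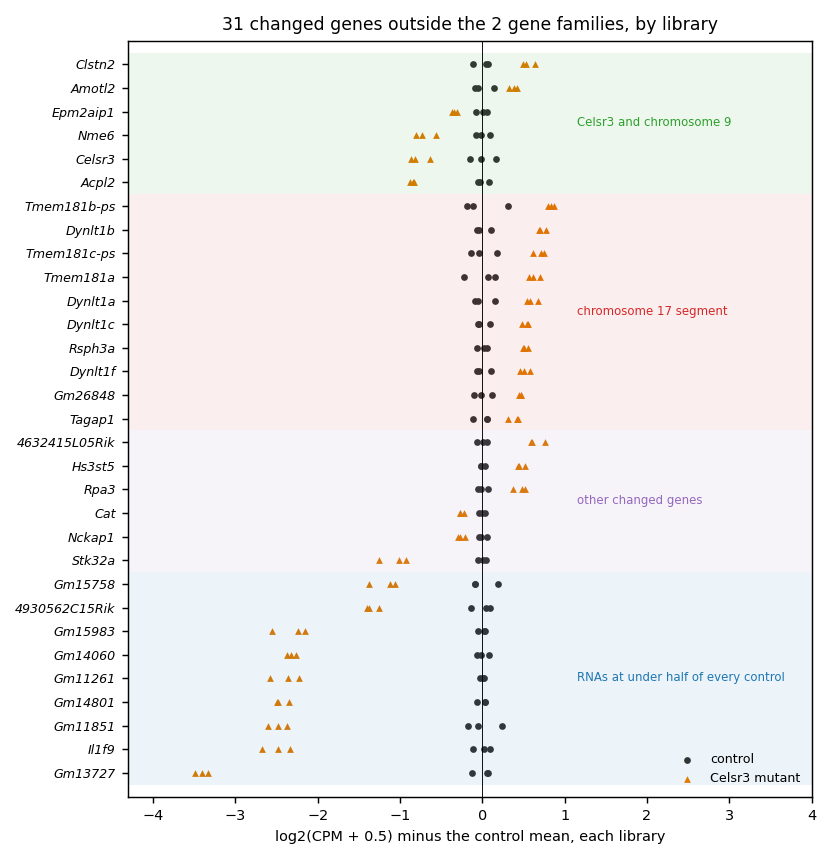
Each of the 31 changed genes outside both families in the 6 libraries, as log2(CPM + 0.5) minus the control mean (circles: controls, triangles: Celsr3 mutants). No gene shows overlap between genotypes, and differences run from -3.41 for Gm13727 to 0.83 for Tmem181b-ps.

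The largest group of raised genes lies together on chromosome 17. All 10 changed genes of chr17:6256860-7979824, a segment of 1.72 Mb, rose, by 0.39 to 0.83 log2 units. They are 4 genes for dynein light chains of the Tctex type (*Dynlt1a*, *Dynlt1b*, *Dynlt1c* and *Dynlt1f*), *Tmem181a* for a membrane protein with its pseudogenes *Tmem181b-ps* and *Tmem181c-ps*, the long noncoding RNA *Gm26848*, *Tagap1* of the GTPase-activating protein group, and *Rsph3a* for a radial spoke protein of cilia. The chromosome has 702 listed genes, and limma called 10 of them (1.42%), beside 0.307% of all genes. The segment was drawn from the first to the last of these, so that no call lies outside it holds by construction. Dynein light chains bind the motor that carries cargo along microtubules.

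*Dynlt1b* (chr17:6430112-6436296, plus strand) was at 168, 171 and 190 CPM in control cortex, against 301, 283 and 288 CPM in mutant cortex. *Dynlt1c* (chr17:6601671-6609774, plus strand) was at 209, 206 and 230 CPM in control libraries and 316, 301 and 313 CPM in mutant ones. All 3 mutant libraries stood above all 3 controls for both genes, with differences of 0.72 (limma adjusted P = 6.55e-05) and 0.53 (limma adjusted P = 0.000584). *Dynlt1f* (chr17:6646602-6655900, minus strand) measured 148, 150 and 165 CPM across the controls, with 230, 212 and 218 CPM across the mutants. *Dynlt1a* (chr17:6306340-6317500, minus strand) measured 130, 127 and 150 CPM in control cortex, against 216, 197 and 202 CPM in mutant cortex. These rose by 0.52 (limma adjusted P = 0.00141) and 0.60 (limma adjusted P = 0.00147), again without overlap. The 4 genes share sequence: between 13.8 and 84.4% of the 31-base words of 1 of them are found in another, so their separate levels are uncertain, and reads of 1 copy may be counted in another.

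Sequences from 250 bases before to 50 bases after the RefSeq start are shown for *Dynlt1c* (chr17:6601529-6601828, plus strand) and *Dynlt1f* (chr17:6655890-6656189, minus strand), from RefSeq on GRCm38.p6, because these neighbours rose by nearly the same amount. Capitals mark bases within 31-base words found in both promoters, 139 of 300 bases in each (46.3%).
Dynlt1c: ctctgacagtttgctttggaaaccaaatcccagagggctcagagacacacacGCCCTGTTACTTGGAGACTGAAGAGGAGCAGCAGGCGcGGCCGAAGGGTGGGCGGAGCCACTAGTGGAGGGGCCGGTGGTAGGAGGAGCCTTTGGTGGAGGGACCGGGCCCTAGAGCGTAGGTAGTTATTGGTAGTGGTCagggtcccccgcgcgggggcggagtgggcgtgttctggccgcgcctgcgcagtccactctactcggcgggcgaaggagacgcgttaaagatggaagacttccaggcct
Dynlt1f: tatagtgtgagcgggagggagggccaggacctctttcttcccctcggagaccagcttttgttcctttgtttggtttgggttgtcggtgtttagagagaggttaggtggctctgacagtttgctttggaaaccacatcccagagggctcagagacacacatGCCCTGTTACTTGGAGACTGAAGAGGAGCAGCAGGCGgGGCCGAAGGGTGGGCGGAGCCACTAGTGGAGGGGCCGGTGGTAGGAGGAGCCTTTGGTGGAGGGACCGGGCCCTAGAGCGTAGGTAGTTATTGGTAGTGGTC
The shared stretch is interrupted by 1 base. It ends before the RefSeq start in *Dynlt1c*, and in *Dynlt1f* it runs across the RefSeq start to the end of the sequence shown. The gene spans given above come from another annotation, and the starts of both genes in it lie within the shared stretch.

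*Tmem181a* (chr17:6256860-6308314, plus strand) was at 62.8, 51.2 and 66.6 CPM in control libraries and 97.4, 91.8 and 88.9 CPM in mutant ones, a rise of 0.63 (limma adjusted P = 0.00648). Its pseudogene *Tmem181c-ps* (chr17:6613753-6639790, minus strand) was at 35.6, 33.0 and 41.4 CPM across the controls, with 61.8, 56.3 and 59.9 CPM across the mutants, a rise of 0.69 (limma adjusted P = 0.00112). *Tmem181b-ps* (chr17:6438524-6467022, minus strand) is listed under 2 identifiers. The entry XLOC_013712 stood at 7.22, 7.65 and 10.4 CPM in control cortex, against 15.6, 14.9 and 15.2 CPM in mutant cortex, a rise of 0.83 (limma adjusted P = 0.00783). The other entry had an estimate of 0.56 and did not pass (limma adjusted P = 0.0931). In these 3 genes the mutant libraries were above the controls in every case. Of 18 alternative fits, *Tmem181a* was lost in 2 (limma adjusted P up to 0.0656) and XLOC_013712 in 1 (limma adjusted P = 0.0584). Between 14.9 and 77.8% of the words of 1 *Tmem181* gene occur in another.

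*Gm26848* (chr17:6314199-6493180, plus strand) was at 17.5, 18.4 and 20.3 CPM in control libraries and 26.1, 25.6 and 26.1 CPM in mutant ones, a rise of 0.46 (limma adjusted P = 0.0108). Its span overlaps *Dynlt1a*, *Dynlt1b* and *Tmem181b-ps*, and the use of strand in the counting is not stated, so reads of overlapping genes cannot be told apart. *Rsph3a* (chr17:7945614-7979824, plus strand) was at 27.1, 26.4 and 25.0 CPM across the controls, with 37.5, 38.7 and 37.2 CPM across the mutants, a rise of 0.52 (limma adjusted P = 0.00523). *Tagap1* (chr17:6955011-6961156, minus strand) was at 16.4, 18.4 and 18.4 CPM in control cortex, against 22.1, 24.0 and 23.9 CPM in mutant cortex, a rise of 0.39 (limma adjusted P = 0.0425). None of the 3 showed overlap of the genotypes. The call of *Tagap1* was lost without any 1 of the 6 libraries (limma adjusted P from 0.0558 to 0.195). The call of *Gm26848* was lost without control library 1 (limma adjusted P = 0.055), control library 2 (limma adjusted P = 0.0509) or *Celsr3* mutant library 4 (limma adjusted P = 0.0594). *Rsph3a* was lost in 1 of 18 alternative fits (limma adjusted P = 0.0674).

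From *Tmem181a* to *Tagap1*, over 698.2 kb from start to start, 12 entries were listed, 9 changed, and all 12 had a positive estimate and no overlap of the genotypes, beside 0.307% of all genes that passed in limma and 10.4% without overlap. Both ends of this stretch are changed genes, so its share of calls depends on how it was drawn. The uncalled entries besides *Tmem181b-ps* were *Ezr*, the membrane linker ezrin, with an estimate of 0.26 (limma adjusted P = 0.268) and *Rsph3b* with 0.37 (limma adjusted P = 0.111). *Rsph3b* holds 59.4% of the words of *Rsph3a*. Between *Tagap1* and *Rsph3a* lie 6 listed genes, of which 0 passed in limma, against 4 with an unadjusted P under 0.05 (5.45% of all genes). The 20 nearest listed genes outside the segment, without a limma call by the way it was drawn, had estimates from -0.42 to 0.27 and a median of 0.0075, and 1 had an unadjusted P under 0.05.

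Of the 10 raised genes, 5 differed between *Celsr3* and *Fzd3* mutants, beside 29.6% of all genes in that contrast. The 2 comparisons with control share the same 3 controls. The values of *Fzd3* mutant minus control come first. *Dynlt1a* had a difference of 0.23, *Dynlt1b* 0.19, *Dynlt1c* 0.06, *Dynlt1f* 0.07 and *Gm26848* 0.06. *Tmem181a* had a difference of 0.72, *Tmem181b-ps* 0.84, *Tmem181c-ps* 0.60, *Rsph3a* 0.48 and *Tagap1* 0.39. The direct contrast, *Celsr3* mutant minus *Fzd3* mutant, passed for the first 5, at 0.53 for *Dynlt1b* (limma adjusted P = 0.000152), 0.47 for *Dynlt1c* (limma adjusted P = 0.000186), 0.44 for *Dynlt1f* (limma adjusted P = 0.00038), 0.40 for *Gm26848* (limma adjusted P = 0.00151) and 0.37 for *Dynlt1a* (limma adjusted P = 0.00255). For the other 5 it lay between -0.09 and 0.09 and did not pass, which does not show that the mutants are alike there.

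On chromosome 9, 5 genes changed besides *Celsr3* and outside the *Rpsa* family. Limma called 7 of the 805 listed genes there (0.87%), *Celsr3* and *Rpsa* included, beside 0.307% of all genes. On chromosome 2 the share was 0.981%, families included. *Acpl2*, now named *Pxylp1* and coding for a phosphatase of glycosaminoglycan synthesis, and *Clstn2*, coding for a synaptic calsyntenin, start 0.62 Mb from each other and moved in opposite directions. *Acpl2* (chr9:96823336-96892669, minus strand) was at 20.7, 18.9 and 19.1 CPM in control libraries and 10.7, 10.4 and 10.8 CPM in mutant ones. It fell by 0.85 to 54.3% of the control mean (limma adjusted P = 0.000114). *Clstn2* (chr9:97444395-98033181, minus strand) was at 114, 115 and 102 CPM across the controls, with 160, 172 and 155 CPM across the mutants. It rose by 0.55 (limma adjusted P = 0.00141), and neither gene had overlapping genotypes. Both lie about as far from *Celsr3* as each other, at -12.0 and -11.38 Mb. Of the 5 listed genes between them 0 passed in limma, against 3 with an unadjusted P under 0.05 (5.45% of all genes), with *Spsb4* at -0.29, *Slc25a36* at -0.17 and *Gm16185* at -0.30, chosen after their values were seen.

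*Amotl2*, for a scaffold of cell junctions, lies at -6.11 Mb from *Celsr3*. It was at 57.8, 67.5 and 59.2 CPM in control cortex, against 77.1, 82.3 and 80.4 CPM in mutant cortex. *Epm2aip1*, which codes for a partner of laforin, was at 194, 188 and 177 CPM in control libraries and 144, 151 and 146 CPM in mutant ones. *Nme6*, of the nucleoside diphosphate kinase family and 1.01 Mb from *Celsr3*, was at 10.2, 11.6 and 10.6 CPM across the controls, with 7.11, 5.95 and 6.28 CPM across the mutants. Genotypes overlapped for none of the 3, with differences of 0.38 for *Amotl2* (limma adjusted P = 0.0284), -0.34 for *Epm2aip1* (limma adjusted P = 0.00775) and -0.70 for *Nme6* (limma adjusted P = 0.0235). Calls of *Nme6* and *Amotl2* were not firm. Without control library 1, control library 3, *Celsr3* mutant library 2 or *Celsr3* mutant library 4, each alone, neither passed (limma adjusted P from 0.0713 to 0.117 for *Nme6* and from 0.104 to 0.141 for *Amotl2*). *Nme6* was also lost without control library 2 (limma adjusted P = 0.109) and *Amotl2* without *Celsr3* mutant library 1 (limma adjusted P = 0.0581). The call of *Epm2aip1* was lost in 3 of 18 alternative fits (limma adjusted P up to 0.0737).

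Of 46 other listed genes that lie within 1 Mb of *Celsr3*, 0 passed in limma, beside 0.307% of all genes, and 7 were under 0.05 before adjustment, beside 5.45% of all genes. Their estimates ran from -0.40 to 0.36 with a median of -0.036, and 40 of the 46 intervals lay within 0.5 of 0. The absence of calls depends on the window, since the called *Nme6* lies just outside it at 1.01 Mb. Inside it, *Slc25a20* had the highest estimate, without overlap of the genotypes and not past the threshold (limma adjusted P = 0.0646), and was chosen after its values were seen. In *Fzd3* mutants, against the shared controls, the differences were -0.52 for *Acpl2*, 0.73 for *Clstn2*, 0.41 for *Amotl2*, -0.02 for *Epm2aip1* and -0.10 for *Nme6*. The direct contrast between the mutants passed for *Acpl2* (-0.33, limma adjusted P = 0.00634), *Epm2aip1* (-0.32, limma adjusted P = 0.000745) and *Nme6* (-0.61, limma adjusted P = 0.00274), and did not pass for *Clstn2* (-0.17, limma adjusted P = 0.0583) or *Amotl2* (-0.03, limma adjusted P = 0.727).

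The deepest losses outside the *Gm1369x* family were in 9 strongly reduced RNAs, of which *Il1f9* and *4930562C15Rik* are annotated as protein coding. They fell by 1.19 to 3.41 log2 units, and the mutant mean lay between 0.965 and 31.2% of the control mean. *Gm13727*, a processed transcript (chr2:77879753-77881467, minus strand), was the most abundant, at 642, 564 and 640 CPM in control cortex, against 57.8, 54.2 and 60.3 CPM in mutant cortex. It fell to 9.33% of the control mean (-3.41, limma adjusted P = 3.48e-11), with no overlap. Its span overlaps the end of *Cwc22* (chr2:77881159-77946375, minus strand), a splicing factor gene that was not analysed here, and 39.8% of its 31-base words occur in *Cwc22*. The *Gm1369x* family begins 6.08 Mb away, and its member *Gm13694* shares 62.2% of its words with *Cwc22*. Levels of these copies are therefore uncertain.

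*Il1f9*, the gene of the cytokine interleukin-36 gamma (chr2:24186476-24193568, plus strand), was at 5.95, 5.39 and 6.30 CPM in control libraries and 0.635, 0.762 and 0.498 CPM in mutant ones, a fall to 10.7% (-2.5, limma adjusted P = 1.07e-05). *Gm15983*, an antisense RNA (chr16:5254786-5289621, plus strand), was at 5.38, 5.07 and 5.42 CPM across the controls, with 0.484, 0.798 and 0.726 CPM across the mutants (-2.32, limma adjusted P = 3.08e-05). In both, every mutant library was well below every control. The 2 genes lie on different chromosomes but share 167 words of 31 bases.

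*Gm11851* (chr4:17656675-17657963, minus strand) was at 4.86, 3.53 and 3.89 CPM in control cortex, against 0.25, 0.381 and 0.313 CPM in mutant cortex (-2.49, limma adjusted P = 1.52e-05). *Gm11261* (chr4:78659858-78661588, minus strand) was at 4.68, 4.62 and 4.49 CPM in control libraries and 0.351, 0.490 and 0.584 CPM in mutant ones (-2.39, limma adjusted P = 6.42e-05). Both are long intergenic noncoding RNAs, and their mutant means were at 7.70 and 10.3% of the control mean. *Gm15758* (chr8:54708987-54710381, plus strand) was at 2.04, 2.05 and 2.58 CPM across the controls, with 0.802, 0.744 and 0.541 CPM across the mutants (-1.19, limma adjusted P = 0.00934). *4930562C15Rik* (chr16:4835416-4867686, plus strand) was at 1.46, 1.41 and 1.18 CPM in control cortex, against 0.20, 0.272 and 0.214 CPM in mutant cortex (-1.34, limma adjusted P = 0.00363). Genotypes overlapped in none of these 4, which share 31-base words with each other, so reads of 1 may be counted for another. The call of *Gm15758* was lost without control library 3 (-1.10, limma adjusted P = 0.0515). Among alternative fits, *Gm15758* was lost in 3 of 17 (limma adjusted P up to 0.255) and *4930562C15Rik* in 1 of 16 (limma adjusted P = 0.118).

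*Gm14801* was at 2.47, 2.69 and 2.68 CPM in control libraries and 0.0501, 0.109 and 0.0570 CPM in mutant ones. *Gm14060* was at 2.06, 1.99 and 2.26 CPM across the controls, with 0, 0.0181 and 0.0427 CPM across the mutants, at or under the level of 3 reads in each. Neither has a position in the annotation used. Their differences of -2.45 (limma adjusted P = 1.28e-05) and -2.32 (limma adjusted P = 1.68e-05) depend on the added 0.5 and are no bound: with 0.1 in its place they were -4.00 and -4.21, with 1 they were -1.75 and -1.60. In *Fzd3* mutants, against the same controls, the 9 RNAs also stood low, with *Gm13727* at -3.50, *Il1f9* at -2.48, *Gm15983* at -2.33 and *Gm14060* at -2.38. In the direct contrast between the mutants, the lowest limma adjusted P of the 9 was 0.241, for *Gm11851*.

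The 6 other changed genes are scattered over 5 chromosomes and have unrelated known roles. *Stk32a*, a serine/threonine kinase gene on chromosome 18, was at 9.69, 10.2 and 10.4 CPM in control cortex, against 5.06, 4.74 and 3.92 CPM in mutant cortex. Mutant levels were near 45.3% of the control mean without overlap (-1.07, limma adjusted P = 0.000175), and this call held in all 18 alternative fits. *Stk32a* was higher than control in *Fzd3* mutants, at 16.0, 16.6 and 16.2 CPM, and the direct contrast was -1.73 (limma adjusted P = 1.29e-06). *Nckap1*, a subunit of the WAVE complex that drives branched actin, was at 491, 460 and 467 CPM in control libraries and 407, 390 and 384 CPM in mutant ones (-0.26, limma adjusted P = 0.0114). *Cat*, the gene of catalase, was at 95.6, 91.0 and 93.3 CPM across the controls, with 77.4, 79.7 and 77.1 CPM across the mutants (-0.25, limma adjusted P = 0.0211). Both lie on chromosome 2, and their mutant means were at 83.3 and 83.7% of the control means without overlap. *Nckap1* is 2.62 Mb from *Gm13727*.

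Among the 3 that rose, *Rpa3*, for a subunit of the single-strand DNA binding complex RPA, was at 23.7, 25.8 and 24.4 CPM in control cortex, against 31.9, 34.7 and 35.5 CPM in mutant cortex (0.46, limma adjusted P = 0.0193). *Hs3st5*, for a heparan sulfate sulfotransferase, was at 9.71, 9.44 and 9.43 CPM in control libraries and 13.1, 13.8 and 13 CPM in mutant ones (0.46, limma adjusted P = 0.0211). The noncoding RNA *4632415L05Rik* was at 4.82, 4.68 and 4.42 CPM across the controls, with 7.21, 8.20 and 7.30 CPM across the mutants (0.65, limma adjusted P = 0.0323). Each had all mutant libraries above all controls. Calls in this group were the least firm. *Hs3st5* (limma adjusted P from 0.0652 to 0.125) and *4632415L05Rik* (limma adjusted P from 0.0791 to 0.167) were lost without any 1 of the 6 libraries. *Rpa3* was lost without control library 1 or 3 or mutant library 2 or 4 (limma adjusted P from 0.0703 to 0.102). *Cat* was lost without control library 1 or 3 or mutant library 1, 2 or 4 (limma adjusted P from 0.0649 to 0.108), and *Nckap1* without control library 1 or mutant library 2 or 4 (limma adjusted P from 0.0579 to 0.0737). In *Fzd3* mutants, against the same controls, *Nckap1* was at -0.41, *Cat* at -0.38, *Rpa3* at 0.38, *Hs3st5* at 0.39 and *4632415L05Rik* at 0.44.

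The direct contrast between the mutants passed for 12 of the 31 genes and did not pass for 19, beside 4346 of 14670 genes (29.6%) that passed in that contrast. Of the 31 genes, 21 kept their call with each library left out and 10 lost it at least once.

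The families are given by range only. The 7 entries of the *Gm1369x* family lie together on chromosome 2, between 83955693 and 83993045, and had control means of 57.1 to 58.0 CPM and mutant means at 3.6 to 3.71% of those. Their sequences share 98.8 to 100% of their words with other genes, so the entries cannot be counted as 7 separate changes. Of the *Rpsa* and *Rpl14* family, *Rpsa-ps10*, *Rpsa-ps2*, *Rpsa-ps9* and *Rpl14-ps1* rose and *Rpsa*, *Rpsa-ps5* and *Gm11824* fell, with differences from -0.88 to 3.30. The calls of *Rpsa*, *Rpsa-ps5* and *Gm11824* did not hold with each library left out. *Rpsa* was lost without control library 1 or 3 or mutant library 2 or 4 (limma adjusted P from 0.0568 to 0.0779). *Rpsa-ps5* (limma adjusted P from 0.0563 to 0.145) and *Gm11824* (limma adjusted P from 0.0867 to 0.196) were lost without any 1 of control libraries 1, 2 and 3 and mutant libraries 1 and 4.

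Just inside the threshold were *4632415L05Rik*, *Tagap1* and *Gm11824*, at limma adjusted P of 0.0323, 0.0425 and 0.0484. Just outside were *Jun*, *Gm26659* and *Ube2l6*. *Jun*, a subunit of the AP-1 transcription factor, was at 43.4, 45.2 and 39.7 CPM in control cortex, against 55.4, 66.5 and 61.2 CPM in mutant cortex (0.51, limma adjusted P = 0.0545). *Gm26659*, a noncoding RNA, was at 1.39, 1.46 and 1.33 CPM in control libraries and 2.79, 2.45 and 2.63 CPM in mutant ones (0.72, limma adjusted P = 0.0584). *Ube2l6*, a conjugating enzyme for ISG15, was at 2.14, 2.40 and 2.58 CPM across the controls, with 3.76, 3.81 and 4.50 CPM across the mutants (0.65, limma adjusted P = 0.0584). All 3 were higher in every mutant library than in every control without passing. *Jun* passed without *Celsr3* mutant library 1 (limma adjusted P = 0.0424), and its limma adjusted P ran from 0.0364 to 0.28 over the alternatives.

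Gene programmes showed next to nothing past the threshold. In 35 lists of cell types, pathways and processes, 447 of 514 genes were listed, and only *Celsr3* passed in limma, while 59 (13.2%) were under 0.05 before adjustment, beside 800 of all 14670 genes (5.45%). The median difference lay within 0.1 of 0 for 25 of the 35 lists, and beyond 0.2 for 2, the meninges list at 1.23 and the choroid plexus list, with 1 listed gene, at 0.28. Without *Celsr3* mutant library 4 these 2 medians were 0.20 and -0.00062. Leaving out 1 library let *Chl1*, *H2-K1* or *Jun* pass, each in 1 case. *Chl1* passed at 0.33 without control library 2 (limma adjusted P = 0.0488), and *H2-K1* at -1.21 without *Celsr3* mutant library 1 (limma adjusted P = 0.0196). The sign of the median turned when 1 library was left out in the lists for core polarity, noncanonical Wnt, beta-catenin targets, both sets of Notch genes, intermediate progenitors, mitosis, astrocytes, ganglionic eminence, choroid plexus, axon guidance, migration, apoptosis, stress response, MHC class I and gliogenic cytokines. Bulk RNA cannot tell fewer cells of a type from less RNA per cell, which holds for every list of cell markers.

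**Figure D4:**
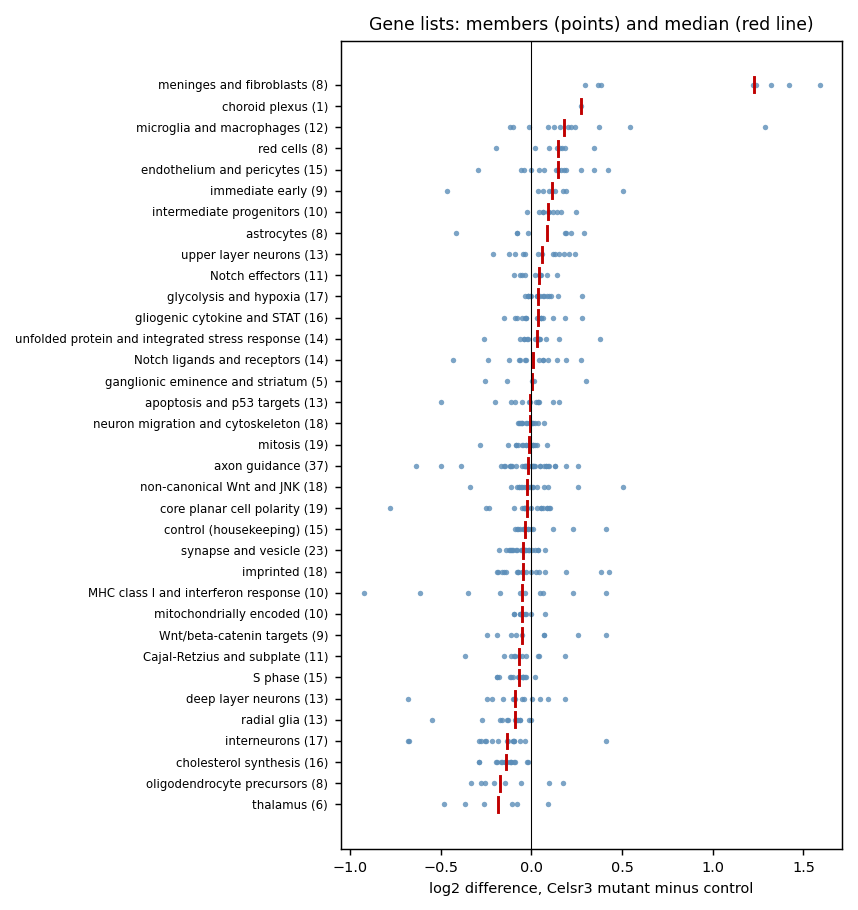
Log2 difference, Celsr3 mutant minus control, of each listed member (points) and the median (red line) of 35 gene lists, with the number of listed members in brackets. The medians of 25 lists lie within 0.1 of 0, and the meninges list lies highest at 1.23, or 0.20 without Celsr3 mutant library 4.

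Of the planar cell polarity and Wnt genes, *Celsr3* alone passed in limma. The core polarity list, with all 19 members listed, had a median of -0.025, and 17 of its intervals lay within 0.5. *Fzd3*, the partner receptor, was at 58.0, 67.7 and 46.8 CPM in control cortex, against 52.1, 61.1 and 54.8 CPM in mutant cortex, a difference of -0.02 with overlap. The noncanonical Wnt and JNK list had a median of -0.024 over 18 genes, with *Wnt7a* at -0.05, *Wnt7b* at 0.09 and *Jun* the largest. The list of beta-catenin targets had a median of -0.054 over 9 genes, with *Axin2*, a feedback inhibitor, at -0.08, *Lef1* at 0.07 and the stem cell receptor gene *Lgr5* largest at 0.41, and 5 of the 9 intervals lay within 0.5. *Lgr5* was below 1 CPM in all 6 libraries. In the list of Notch ligands and receptors the median was 0.0086 over 14 genes. *Jag1*, a ligand, had the largest difference there at -0.43 (limma adjusted P = 0.0613), and *Jag2* stood at -0.06. Levels of *Jag1* were 17.2, 18.7 and 20.2 CPM in control libraries and 14.4, 12.9 and 13.8 CPM in mutant ones, without overlap, as in 10.4% of all genes. It passed in 0 of 18 alternative fits (limma adjusted P from 0.0506 to 0.58). The Notch effector list had a median of 0.043 over 11 genes, with *Hes1* at -0.05, *Hes5* at -0.06 and *Hes6* largest at 0.14. Without *Celsr3* mutant library 4 the medians of both Notch lists were below 0, at -0.026 and -0.027. *Hes1* was then at -0.17 and *Hes5* at -0.13.

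In the radial glia list all 13 listed genes had estimates below 0, with a median of -0.09 and 3 unadjusted P values under 0.05, beside 5.45% of all genes. Rescaling each library to an equal CPM total put *Sox2* and *Ptprz1* above 0, and quantile normalization put *Sox2* above it. *Pax6*, a radial glia transcription factor, was at 76.8, 82.3 and 71.6 CPM in control libraries and 68.0, 73.8 and 79.3 CPM in mutant ones, with overlap and a difference of -0.06. *Hopx*, a marker of outer radial glia, was at 5.41, 5.27 and 4.16 CPM across the controls, with 2.97, 3.10 and 3.56 CPM across the mutants. This was the largest difference of the list (-0.55), without overlap and not past the threshold (limma adjusted P = 0.201). *Sox2* differed by -0.0030. Leaving out 1 library put 9 to 13 of the radial glia genes below 0, with medians from -0.155 (without *Celsr3* mutant library 4) to -0.03 (without *Celsr3* mutant library 1). For intermediate progenitors 9 of 10 estimates were above 0 with a median of 0.09, which ran from -0.0018 without control library 3 to 0.15 without control library 2. There *Eomes* was at 0.09, *Neurog2* at 0.06 and *Insm1*, which drives delamination of progenitors, largest at 0.25 (limma adjusted P = 0.669). Without *Celsr3* mutant library 4 *Eomes* was at 0.06, *Neurog2* at -0.0025 and *Insm1* at 0.24.

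The S phase list had 14 of 15 estimates below 0 and a median of -0.07. Leaving out 1 library moved these from 11 below 0 and -0.026 (without *Celsr3* mutant library 1) to 15 and -0.11 (without *Celsr3* mutant library 4). *Mcm2* and *Mcm3*, of the replication helicase, were at -0.12 and -0.19, the second being the largest, and *Pcna* was at -0.04. The mitosis list had a median of -0.014, which ran from -0.08 without *Celsr3* mutant library 4 to 0.03 without *Celsr3* mutant library 1. *Mki67* was at 0.03, *Top2a* at -0.05 and the kinase gene *Plk1* at -0.28 (limma adjusted P = 0.559). All 19 mitosis and all 15 S phase intervals lay within 0.5.

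Layer neurons also showed no called gene. In the deep layer list the median was -0.09 over 13 genes, from -0.10 without *Celsr3* mutant library 2 to -0.05 without control library 2. *Bcl11b*, a factor of subcerebral neurons, was at 252, 266 and 230 CPM in control cortex, against 209, 227 and 207 CPM in mutant cortex. The mutants were below the controls in every library, with a difference of -0.22 (limma adjusted P = 0.462). *Tbr1* differed by -0.05, and *Crym* had the largest estimate (-0.68) with controls from 4.81 to 13.9 CPM. For the upper layer list the median was 0.06 over 13 genes, from 0.03 without control library 3 to 0.12 without control library 2. *Cux1*, a homeobox factor of upper layer neurons, was at 0.12 and did not pass (limma adjusted P = 0.936). The list for Cajal-Retzius and subplate cells had a median of -0.07, from -0.10 without control library 1 to -0.013 without *Celsr3* mutant library 4, with *Reln* at -0.15 and at -0.04 without library 4, *Trp73* at -0.05 and *Calb2* largest at -0.36.

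Interneuron genes were mostly lower without passing, with 16 of 17 estimates below 0 and a median of -0.13. That median ran from -0.23 without *Celsr3* mutant library 1 to -0.07 without *Celsr3* mutant library 4. *Gad1*, an enzyme of GABA synthesis, was at 34.4, 29.8 and 42.3 CPM across the controls, with 34.1, 27.4 and 25.9 CPM across the mutants. *Sst*, the gene of somatostatin, was at 15.7, 12.4 and 23.6 CPM in control cortex, against 13.7, 9.51 and 8.09 CPM in mutant cortex. The genotypes overlapped for both. *Gad2* differed by -0.25 and *Sst* by -0.68, the largest of the list (limma adjusted P = 0.884). The ganglionic eminence and striatum list had 5 listed genes and a median of 0.0028, with *Dlx1* at -0.26, *Dlx2* at -0.13 (-0.06 without library 4) and *Ebf1* largest at 0.30. The thalamus list had a median of -0.18 over 6 genes, and -0.27 without *Celsr3* mutant library 4. *Tcf7l2* was at -0.11, at -0.27 without library 4 and above 0 without *Celsr3* mutant library 1, and *Lhx9* was largest at -0.48.

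Axon guidance genes, the field in which *Celsr3* is best known, had a median of -0.020 over all 37 members, and 34 of the 37 intervals lay within 0.5. *Robo1*, a Slit receptor, was at 282, 294 and 276 CPM in control libraries and 335, 256 and 279 CPM in mutant ones, a difference of 0.02 with overlap. *Slit1* was at -0.11, and *Slit3* had the largest estimate (-0.63), with control library 3 at 8.65 CPM and the other 5 libraries from 2.63 to 3.30 CPM. In the synapse and vesicle list 23 of 23 intervals lay within 0.5, and 18 estimates were below 0 with a median of -0.04. Rescaling each library to an equal CPM total made that 17, with *Sv2a* above 0, and leaving out 1 library made it 12 (without *Celsr3* mutant library 4) to 20 (without *Celsr3* mutant library 1). *Syn1* was at 0.08, *Snap25* at -0.04 and *Gria1* largest at -0.18 (-0.105 without library 4). The migration and cytoskeleton list had all 18 intervals within 0.5 and estimates from -0.07 to 0.07. *Dcx*, for doublecortin of migrating neurons, was at 1937, 1972 and 1842 CPM across the controls, with 1940, 1971 and 1830 CPM across the mutants. The ranges of *Dcx* nearly coincided between genotypes, *Pafah1b1* was at -0.0077, and *Mapt* was largest at -0.07.

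The astrocyte list had a median of 0.08, from -0.012 without *Celsr3* mutant library 4 to 0.15 without control library 3, and 4 of 8 estimates above 0, with *Aldh1l1* at -0.08 and *Slc1a2*, a glutamate transporter, largest at -0.41. For oligodendrocyte precursors the median was -0.17, from -0.27 without *Celsr3* mutant library 1 to -0.038 without control library 3, and 6 of 8 estimates were below 0. *Olig2* was at 3.66, 3.88 and 5.34 CPM in control cortex, against 4.83, 3.28 and 2.15 CPM in mutant cortex, with overlap and the largest difference of its list (-0.33), and *Olig1* was at -0.15. Without library 4 the 2 were at -0.08 and -0.018. In the endothelium and pericyte list the median of 0.15 ran from 0.0032 without *Celsr3* mutant library 4 to 0.22 without *Celsr3* mutant library 2, and 11 of 15 estimates were above 0. *Cldn5*, a tight junction gene, was at 0.35, *Pecam1* at 0.14 and *Vtn* largest at 0.42, against 0.19, 0.0036 and 0.05 without library 4. The microglia and macrophage list had a median of 0.18, from 0.11 without *Celsr3* mutant library 4 to 0.26 without *Celsr3* mutant library 1, and 9 of 12 estimates above 0, with *Cx3cr1* at 0.16 and at 0.06 without library 4, *Csf1r* at 0.37 and *Mrc1* largest at 1.29 and at 0.57 without library 4. In the meninges list *Dcn* was at 1.42, *Col1a1* at 1.32 and *Col3a1* at 1.59, against 0.59, 0.36 and 0.32 without library 4. The choroid plexus list rests on *Enpp2*, at 16.9 CPM in library 4 and from 7.92 to 10.8 CPM in the others.

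Red cell genes summed to 1770, 1920 and 2040 CPM in control libraries and 2420, 1590 and 2540 CPM in mutant ones, with *Hba-a1* the most abundant. *Hbb-bs* was at 0.17 and *Hba-a1* at 0.16, against 0.039 and 0.032 without library 4, and the list's median of 0.15 ran from 0.022 without *Celsr3* mutant library 4 to 0.37 without *Celsr3* mutant library 2. The immediate early list had a median of 0.12, from 0.05 without control library 3 to 0.17 without control library 2, with *Egr1* at 0.19 and *Jun* largest.

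All 16 listed genes of cholesterol synthesis had estimates below 0, under both other scalings as well, with a median of -0.14 and 8 unadjusted P values under 0.05, beside 5.45% of all genes, and 0 passed in limma, beside 0.307%. *Hmgcs1*, for an early enzyme of the pathway, was at 467, 394 and 450 CPM across the controls, with 407, 372 and 366 CPM across the mutants, a difference of -0.19 with overlap. Between 14 and 16 of these genes stayed below 0 when 1 library was left out. The list was written with earlier results of these data known, and all these counts come from the same libraries, so they are not separate support. The list of glycolysis and hypoxia had a median of 0.038, and 0.065 without control library 1, with *Vegfa* at 0.03, *Slc2a1* at 0.07 and *Ankrd37* largest at 0.28. In the stress response list the median was 0.033, and -0.020 without *Celsr3* mutant library 4, with *Atf4* at -0.02, *Ddit3* at 0.04 and *Chac1* largest at 0.38. The apoptosis and p53 list had a median of -0.0059, with *Cdkn1a* at -0.20, *Mdm2* at -0.01 and *Eda2r* largest at -0.50 (limma adjusted P = 0.742).

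In the list of MHC class I and interferon genes the median was -0.05 over 10 genes. *H2-K1*, an antigen-presenting molecule that differs between strains, was at 4.37, 2.89 and 4.42 CPM in control cortex, against 2.87, 1.42 and 1.34 CPM in mutant cortex. The genotypes did not overlap, by a narrow margin, and the estimate of -0.92 did not pass (limma adjusted P = 0.293). *H2-D1* was at 13.7 CPM in control library 1 and from 4.24 to 5.60 CPM in the others. The mitochondrially encoded list had a median of -0.05 and estimates from -0.10 to 0.07, with *mt-Nd1* at -0.03, *mt-Nd2* at -0.06 and *mt-Nd6* largest at -0.10. Imprinted genes had a median of -0.047, and -0.019 without *Celsr3* mutant library 1, with *Igf2* at 0.38 and *H19* largest at 0.43, and -0.11 and 0.08 without library 4. For gliogenic cytokine and STAT genes the median was 0.037, and -0.0088 without *Celsr3* mutant library 4, with *Il6st* and *Lifr* at 0.05 and *Osmr* largest at 0.28. The housekeeping list had a median of -0.036, and -0.010 without control library 3, with *Actb* at -0.06, *Gapdh* at -0.02 and *B2m* largest at 0.41, which was 0.11 without library 4.

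For most genes the difference from control could be bounded, which does not mean that they were unchanged. Called genes such as *Nckap1* (interval from -0.35 to -0.18) and *Cat* (from -0.34 to -0.17) lie within the limit of 0.5. The 95% interval of the difference lay within 0.25 of 0 for 7505 genes (51.2%), within 0.5 for 12449 (84.9%) and within 1 for 14414 (98.3%). Among the 11585 genes that averaged 5 CPM or more, 10979 intervals (94.8%) lay within 0.5 and 7494 (64.7%) within 0.25. These intervals are not adjusted over genes, and their median half-width was 0.179. Estimates themselves were within 0.25 of 0 for 13595 genes (92.7%). The median absolute difference was 0.055, smaller than the median over genes of the largest pairwise difference among the 3 controls (0.171) or among the 3 *Celsr3* mutants (0.156), though a difference of means also varies less than single libraries do. Positive estimates were found for 7146 of the 14670 genes, and the median of all was -0.0022.

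Correlations of whole libraries reached lower values between genotypes than within them. All lay near 1, so they say little about single genes. Between control and *Fzd3* mutant libraries they were 0.9749 to 0.9827. Across genes, Pearson's r on log2(CPM + 0.5) was 0.9891 to 0.9932 between *Celsr3* mutant and control libraries, 0.9924 to 0.9945 between controls and 0.9934 to 0.9937 between *Celsr3* mutants, where genes are not independent replicates. In the *Fzd3* mutants, against the same controls, 4366 genes passed in limma (29.8%), the median absolute difference was 0.145, and 10216 intervals (69.6%) lay within 0.5. These are each comparison's own values, and the counts were not tested against each other.

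A large estimate did not always come with a call. Of 41 estimates beyond 1 in either direction 21 passed, and 20 did not, 14 of them positive. Of these 20, 11 came within 1 without *Celsr3* mutant library 4.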

How the data were processed

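The authors deposited 1 table of CPM values for 14670 genes in 9 libraries. The submitters' processing notes name FastQC, TopHat, TopHat2, Bowtie, Cufflinks 2.1.1 and edgeR 2.12 and the builds GRCm38 and GRCh37, without roles, and the use of strand is not stated. In each column 100% of the values were whole multiples of 1 step (tolerance 0.1 of a step), which gave the depths of 39857305 to 69600591 reads in the 6 libraries compared. CPM were not turned into counts.

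Genotypes were compared on log2(CPM + 0.5) by the limma package (3.58.1, under R 4.3.3), using lmFit, contrasts and eBayes with trend. All 9 libraries entered 1 fit with a mean per genotype, so that 3 genotypes share an estimate of spread. P values are two-sided, with Benjamini-Hochberg adjustment over 14670 genes and calls were made at 0.05. Asking for 0.5 CPM on average removed 0 genes, and 0 columns were unused. The fit was tested on simulated data. Python 3.11.15, with pandas 2.3.3, numpy 2.4.6 and matplotlib 3.10.9, made tables and plots.

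Symbols were matched to GENCODE M21 of GRCm38 (14420 of 14670 genes, 13786 by symbol and 634 by an older symbol), which need not be the annotation that the authors used. Shared sequence was counted as 31-base words of annotated exons. Promoters are from RefSeq.

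Named genes were *Celsr3*, every gene past the threshold, the 3 just inside and the 3 just outside it, the most abundant changed genes, and the first 2 and the largest member of each list. The results of 4 of these list members are not reported here. *Ube2l6* was taken as the third gene outside after its values were seen, and other genes named as such, the chromosome groups, and the genes that set library 4 apart were chosen the same way. Members and lists were chosen with earlier results of these data known. Alternatives covered the pseudocount, filters, scaling, the libraries fitted, a replicate block, the variance moderation, *Xist* as a covariate and leaving out each library. The mean of *Col1a1*, *Col1a2*, *Col3a1* and *Dcn* as a covariate was added after the data were seen.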

Additional observations from a re-analysis of the deposited data

Results flagged for a closer look

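In 4 genes the *Celsr3* and *Fzd3* mutants differed from the shared controls in opposite directions, each past the limma threshold, and the direct contrast between the mutants passed as well. *Rpsa-ps10* differed by 3.56 between the mutants (*Celsr3* mutant minus *Fzd3* mutant, log2, limma adjusted P = 3.02e-10), with 3.30 and -0.26 against the controls. *Rpsa-ps2* differed by 2.25 in the same contrast (limma adjusted P = 8.09e-08), with 1.99 and -0.26. For *Rpsa-ps9* the contrast was 1.94 (limma adjusted P = 2.15e-06), with 1.51 and -0.43. For *Stk32a* it was -1.73 (limma adjusted P = 1.29e-06), with -1.07 and 0.67. The *Rpsa* pseudogenes share sequence, so the first 3 are not separate observations.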

How the results depend on the processing

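Over 18 alternative fits, 29 to 48 genes passed, and 25 of the 45 changed genes passed in every fit that tested them. Another 20 were lost in at least 1 fit and 4 in at least 10, and 0 reversed. Of the genes just outside the threshold, *Jun* passed in 4 fits, *Gm26659* in 2 and *Ube2l6* in 1. Leaving out 1 library gave 39 to 47 genes, *Celsr3* at -0.85 to -0.69 and 11681 to 11918 intervals within 0.5 of 0, and 32 of the 45 genes passed each time. A block for the replicate number left 29 genes past the threshold, 25 of them among the 45, and *Celsr3* was at -0.71 with a limma adjusted P of 0.0699, against 0.00143 to 0.0699 over all alternatives. Correlations across genes of deviations from the group mean were 0.0728 and -0.0132 for equal numbers and -0.163 to 0.171 for others. With so few equal numbers, these values cannot show whether the numbers pair libraries. For the smaller count with the block, the cause was not tested. With the mean of 4 fibroblast genes as a covariate, chosen after seeing the data, 37 genes passed, 31 of them among the 45, and *Celsr3* was at -0.74 (limma adjusted P = 0.019). Tests for counts with edgeR and DESeq2 were not run, because CPM were not turned into counts. With 3 libraries per genotype, exact permutation cannot go below P = 0.1. Levels near 0.0427 to 0.0752 CPM, or 3 reads, cannot be told from 0, which touches *Gm14060* and *Gm14801*. Batches and dates of sequencing were not analysed here.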

Other observations

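The uncalled genes with estimates beyond 1 include some that vary within genotypes. *Rhox8*, a homeobox gene of the X chromosome, was at 3.85, 0.296 and 5.02 CPM in control libraries and 0, 0 and 0.185 CPM in mutant ones. The genotypes did not overlap, and the estimate of -2.27 did not pass (limma adjusted P = 0.35). The pseudogene *Gm8399* was at 136, 149 and 99.8 CPM across the controls, with 38.9, 33.5 and 83.3 CPM across the mutants (-1.39, limma adjusted P = 0.0719). Library 4 was nearest the controls there, and without it the estimate was -1.79. *Col6a3*, a collagen gene, was at 0.771, 2.27 and 0.903 CPM in control cortex, against 2.99, 3.41 and 8.43 CPM in mutant cortex, and *Hmcn1*, for a matrix protein, at 0.944, 1.66 and 0.853 CPM against 2.92, 3.16 and 2.25 CPM. Both stayed beyond 1 without library 4, at 1.12 and 1.13, and neither passed with it (limma adjusted P = 0.284 and 0.116). *Rpl3-ps1* and *Rpl3-ps2*, pseudogenes of a ribosomal protein on the X chromosome, had estimates of 1.09 and 1.65, with control library 1 above the other controls in both (105 and 33.3 CPM). These genes were chosen after their values were seen.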
